A study of Drosophila melanogaster with 20 samples.

Results

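The mitochondrially encoded genes of Drosophila were examined in heads of red-eyed (w+) and white-eyed (w-) flies of both sexes. They were all genes whose FlyBase symbol begins with mt:, and 37 of the 17609 genes in the count table met this rule, 13 of them protein-coding, 2 coding for ribosomal RNAs and 22 for transfer RNAs. The count table identifies genes by FlyBase number alone, so the symbols were taken from the reference annotation. The origin region of the mitochondrial genome, which also carries an mt: symbol, was not analysed here.

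Each sample was a pool of 10 heads from unmated flies aged 1 week, and 5 samples were sequenced in each of 4 groups, w+ and w- males and w+ and w- females. A white gene of the Harwich strain had been backcrossed for 10 generations into the w1118 stock, which carries a partial deletion of white. The red-eyed parent in those crosses was the female, and heterozygous mothers crossed to w1118 males gave all 4 groups as siblings. The w+ females therefore carried 1 functional copy of white, and w- flies carried none. The paper states that linkage is not fully controlled in this design. An effect of white therefore cannot be told apart from one of Harwich sequence linked to it. Because mitochondrial DNA passes from mother to offspring, all 4 groups descend in the female line from the Harwich female, and their reads were aligned to the reference mitochondrial genome. Nothing in the sources says what the samples with 1 replicate number share, and p-values measure the spread between these pools.

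The mitochondrial genome is a small circle with genes on both strands and almost no space between them. Its messenger RNAs encode core subunits of the complexes that carry electrons to oxygen and make ATP, while its rRNAs and tRNAs serve the translation of those messages inside the organelle. Transcription yields long precursors, which are cut largely at the tRNAs that punctuate the genome, so neighboring genes can share a precursor and still differ in the level of the mature RNA. The other subunits of the same complexes, and the proteins that copy, transcribe and process mitochondrial RNA, are encoded in the nucleus.

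Gene counts summed to between 34.2 and 48.9 M reads in a sample. The total was 39.3 to 48.9 M reads in w+ males and 34.3 to 38.6 M reads in w- males, without overlap, while the female groups overlapped. The white gene had 374 to 688 counts in every w+ sample and 4 to 15 in every w- sample, which matches the labels. The markers of photoreceptors (ninaE, trp and ninaC), head neurons and glia were present in all groups, and the summed level of 4 markers of tissues outside the head never exceeded 3.51 CPM (the count scaled to the library total). The summed level of 3 fat body markers was 2677 to 5612 CPM in w+ males and 1545 to 2518 in w- males, and 5854 to 9463 in w+ females and 2989 to 6169 in w- females. The summed level of 3 muscle markers was 1571 to 2474 CPM in w+ females and 2549 to 3097 in w- females, and 1636 to 1949 in w+ males and 1736 to 2035 in w- males. By the test described below, 1 fat body marker was lower in w- males and 2 muscle markers were higher in w- females. No marker was at 0 in all samples of a group except SP (outside the head) in both w- groups and Mst84Da in w+ females. The part of depth, fat body and muscle content in the differences below was not tested. In bulk tissue, fewer cells of a type and less RNA per cell cannot be told apart.

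Mitochondrial genes took 5.97% to 8.48% of all gene counts. In w+ males the share was 7.77%, 8.30%, 6.997%, 6.91% and 8.05% in the samples numbered 1 to 5, with a mean of 7.61% ± 0.62 (SD, n = 5). In w- males it was 6.50%, 6.69%, 6.23%, 6.23% and 6.38%, with a mean of 6.41% ± 0.19 (SD, n = 5). Every w- male sample thus lay below every w+ male sample. In w+ females the share was 5.998%, 6.40%, 6.88%, 7.46% and 8.48%, with a mean of 7.04% ± 0.97 (SD, n = 5), and in w- females it was 7.05%, 6.87%, 6.31%, 5.97% and 6.51%, with a mean of 6.542% ± 0.43 (SD, n = 5). The female groups overlapped, and the 2 highest w+ females were those numbered 4 and 5. The 13 protein-coding genes contributed 2.45% ± 0.23 of counts in w+ males against 2.06% ± 0.19 in w- males, and 2.30% ± 0.28 in w+ females against 2.12% ± 0.21 in w- females (SD, n = 5 each).

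**Figure D1:**
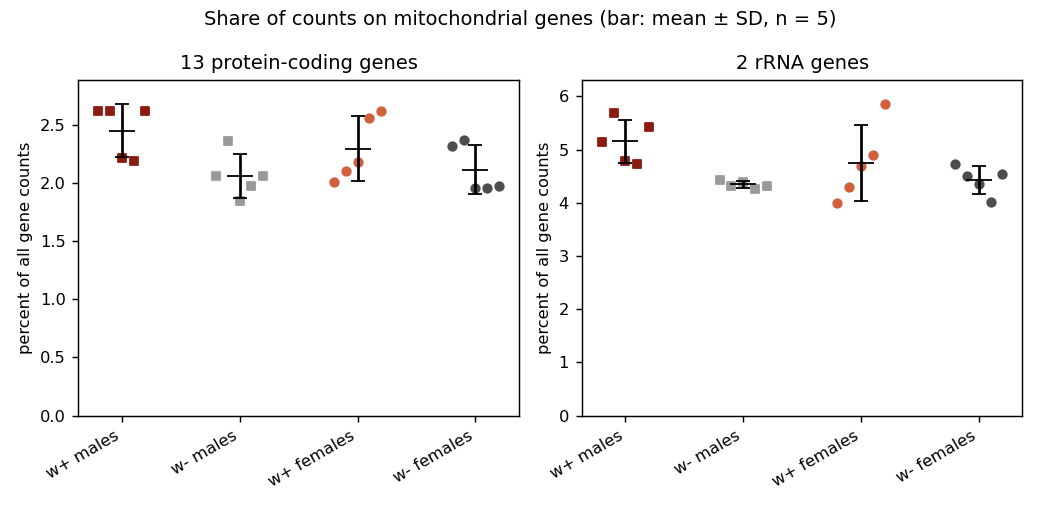
Percent of all gene counts on the 13 protein-coding genes (left) and the 2 rRNA genes (right) of the mitochondrial genome, by group. Points are samples and bars are the mean ± SD (n = 5), and the rRNA share of w- males (4.25% to 4.44%) lies below that of every w+ male (4.73% to 5.68%).

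The level of each RNA was compared between genes as CPM per kb of gene, and from here on CPM were computed on library totals adjusted by TMM factors, which set the typical gene equal between samples. The large-subunit rRNA, mt:lrRNA, stood first at 35350 CPM per kb on average over the 20 samples and made up 64.6% to 70.2% of all mitochondrial counts. The next were 2 subunits of cytochrome c oxidase, mt:CoI at 6660 and mt:CoIII at 6459 CPM per kb. mt:CoI was the higher one in 16 of 20 samples, which included every male sample, and by 1.03-fold on average. The group means were 7059 and 6672 CPM per kb in w+ males and 5553 and 5080 in w- males, but 7775 and 7794 in w+ females and 6252 and 6288 in w- females. They were followed by mt:CoII at 2984, mt:Cyt-b at 1923, mt:ATPase6 at 1059 and mt:ND1 at 857 CPM per kb. This order from mt:CoIII to mt:ND1 held in all 20 samples.

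The subunits of complex I other than mt:ND1 were lower. Their levels were 407 CPM per kb for mt:ND4, 344 for mt:ND5, 261 for mt:ND3, 95.1 for mt:ND4L, 79.5 for mt:ND2 and 39.9 for mt:ND6. Levels within 1 complex therefore spanned 39.9 to 857 CPM per kb. These values describe what was captured by poly(A) and counted. Reads that touch more than 1 gene were left out, which can lower a short adjoining gene more than a long one. How far the span reflects the amounts of the mRNAs was not tested. The order at the low end was less firm, with mt:ND4L above mt:ND2 in 19 of 20 samples and mt:ATPase8 (63.4 CPM per kb) above mt:srRNA (45.3) in 17.

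mt:CoI alone provided 43.7% to 47.9% of the counts on mitochondrial protein-coding genes, and the 3 genes with the most counts provided 77.8% on average.

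**Figure D2:**
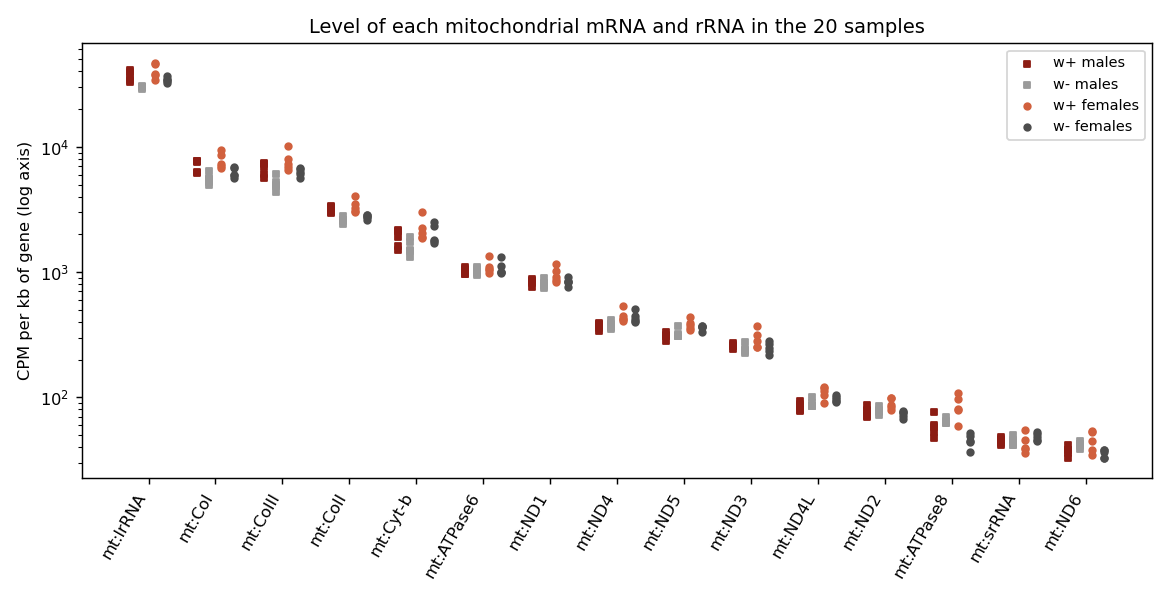
Level of the 13 mitochondrial mRNAs and 2 rRNAs in CPM per kb of gene on a log axis, 1 point for each of the 20 samples, colored by group. Levels run from 39.9 (mt:ND6) to 35350 CPM per kb (mt:lrRNA) on average, and the order of the genes is much the same in the 4 groups.

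Both rRNAs lie next to each other on the minus strand, mt:lrRNA at positions 12735 to 14058 and mt:srRNA, the small-subunit rRNA, at 14131 to 14916 of the mitochondrial genome (BDGP6.54 annotation), separated by the gene of tRNA-Val. Their counts nevertheless differed greatly, with 1482692 to 2514053 counts per sample on mt:lrRNA and 1087 to 1922 on mt:srRNA. The libraries were made from poly(A)-captured RNA, so these levels describe what was captured and not the total amount of either rRNA. Per length, mt:lrRNA exceeded mt:srRNA by 708- to 944-fold in w+ males and 596- to 714-fold in w- males. In females this ratio was 846 to 1064 in w+ and 640 to 799 in w- samples, without overlap. Like the ratios between genes that follow, it was chosen after the values had been seen and is given as a description.

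Of the 22 tRNA genes, 7 had 0 counts in every sample and 15 had at least 1 count in some sample. Only mt:tRNA:Thr-TGT, with 2 to 14 counts per sample, passed the filter on low counts (at least 10 counts in at least 3 samples), and no other tRNA exceeded 10 counts. All tRNA genes together had 27 ± 5.4 counts in w+ males against 21 ± 4.7 in w- males, and 27.8 ± 7.7 in w+ females against 18.4 ± 5.8 in w- females (SD, n = 5 each). tRNA genes are 62 to 72 bases long, lack a long poly(A) tail, and lose reads that also touch a neighboring gene, so no statement on tRNA abundance can be drawn from these counts. A count of 0 allows up to 3 counts per sample, by counting error alone. The 16 genes that passed the filter, the 13 protein-coding genes, both rRNAs and mt:tRNA:Thr-TGT, were tested, and 21 tRNA genes were not.

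Whether these RNAs differed between w- and w+ males was tested first, with edgeR's quasi-likelihood test on the counts, blocked by replicate number. In w- males 5 of the 16 mitochondrial genes were lower than in w+ males at an adjusted p under 0.05 and 0 were higher. Among all 11187 genes tested in males, 8.06% were lower and 4.64% higher. The 5 genes were all 3 mitochondrial subunits of cytochrome c oxidase (mt:CoI, mt:CoII and mt:CoIII), cytochrome b (mt:Cyt-b), the only mitochondrial subunit of complex III, and mt:lrRNA. None of the 7 complex I subunits and neither ATP synthase subunit passed the test. The median log2 difference of the 16 genes was -0.02, beside 0.00 over all genes tested.

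mt:CoI (FBgn0013674, plus strand, 1474 to 3009) encodes the catalytic subunit of cytochrome c oxidase. Its level in w+ males was 11538, 11835, 9461, 9600 and 11780 CPM, and in w- males 8456, 9874, 7639, 8046 and 8634 CPM. The groups overlapped in that w- male 2 lay above the 2 lowest w+ males. The log2 difference was -0.35 (SE 0.05, adjusted p = 0.00559), so the level fell by 21.5%.

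mt:CoII (FBgn0013675, 3083 to 3767), whose product takes up electrons from cytochrome c, had 2216, 2317, 2071, 2018 and 2283 CPM in w+ males. The w- males had 1795, 1928, 1666, 1773 and 1745 CPM, and every one was below every w+ male. The log2 difference was -0.30 (SE 0.05, adjusted p = 0.00595).

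mt:CoIII (FBgn0013676, 4736 to 5524), the third core subunit of the oxidase, had 5468, 5772, 4805, 4451 and 5825 CPM in w+ males and 4096, 4808, 3421, 3811 and 3905 CPM in w- males. Here too w- male 2 lay inside the w+ range, and the other 4 w- males lay below it. Its log2 difference, -0.40 (SE 0.06, adjusted p = 0.00641), had the largest size of the 16 genes in males.

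mt:lrRNA (FBgn0013686) had 47546, 54319, 44968, 43786 and 52162 CPM in w+ males and 40211, 39802, 39672, 38646 and 39737 CPM in w- males. The w- samples lay within a narrow band below all w+ samples (SD 581 against 4551 CPM). The log2 difference was -0.29 (SE 0.06, adjusted p = 0.0208). It no longer passed without the samples numbered 5 (adjusted p = 0.0851) or in a fit of all 20 samples (0.0697).

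mt:Cyt-b (FBgn0013678, 10499 to 11635), the cytochrome subunit of the complex that passes electrons to cytochrome c, had 2171, 2401, 1825, 1694 and 2483 CPM in w+ males and 1714, 2156, 1496, 1676 and 1978 CPM in w- males. The groups overlapped widely. The log2 difference was -0.23 (SE 0.06, adjusted p = 0.0408). This call was the least firm of the 5, since it was lost without the block (adjusted p = 0.273), in a fit of all 20 samples (0.328), with library size alone (0.0588), and without the samples numbered 1 (0.0999), 2 (0.0571), 3 (0.138) or 5 (0.153).

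mt:CoII and mt:lrRNA were the 2 of 16 genes whose w- male samples all lay below all w+ male samples, a pattern seen in 7.43% of the genes tested in males.

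The complex I subunits were close to equal in the male groups. Their log2 differences lay between -0.09 (SE 0.06, adjusted p = 0.374) for mt:ND3 and 0.17 (SE 0.06, adjusted p = 0.131) for mt:ND6. mt:ND5, the long subunit on the minus strand (6409 to 8125), had 576, 542, 526, 488 and 527 CPM in w+ males and 529, 638, 528, 534 and 549 in w- males, and w- male 2 stood above the rest. The neighboring mt:ND4 had 494 ± 29.4 CPM in w+ and 504 ± 33.4 in w- males (SD, n = 5 each). mt:ND6 had 19.5 ± 1.7 CPM in w+ and 22 ± 1.3 in w- males (SD, n = 5 each) and did not pass the test.

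The ATP synthase subunits mt:ATPase6 and mt:ATPase8 form part of the rotary motor that makes ATP. mt:ATPase6 had 694 ± 39.9 CPM in w+ males and 687 ± 44.1 in w- males (SD, n = 5 each, log2 difference -0.02, SE 0.04, adjusted p = 0.814). mt:srRNA had 35.4 ± 1.9 and 35.3 ± 2.7 CPM in w+ and w- males (SD, n = 5 each, log2 difference -0.01, SE 0.04, adjusted p = 0.895). Neither difference exceeded the spread between samples.

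A ratio of 2 genes within a sample cancels the scaling of libraries, so the contrast was also read from ratios of chosen pairs of genes. The length-adjusted ratio of mt:CoI to mt:ND5 was 20.1 to 25.0 in w+ males and 16.2 to 17.9 in w- males. The ratio of mt:CoIII to mt:ATPase6, which adjoin on the plus strand and share 1 base, was 5.84 to 6.86 in w+ males and 4.62 to 5.51 in w- males. Neither ratio overlapped between the male groups, but both overlapped between the female groups. The ratio of mt:CoI to mt:ND5 was 17.9 to 23.9 in w+ and 16.3 to 18.5 in w- females. That of mt:CoIII to mt:ATPase6 was 6.32 to 7.57 in w+ and 4.97 to 6.37 in w- females. For mt:Cyt-b to mt:ND6 the male groups overlapped, with 38.7 to 64.4 in w+ and 31.0 to 45.3 in w- males. For mt:lrRNA to mt:ND1 they did not, with 41.4 to 48.3 in w+ and 33.8 to 40.2 in w- males. A ratio shows that the genes differed unequally and not which of them moved.

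**Figure D3:**
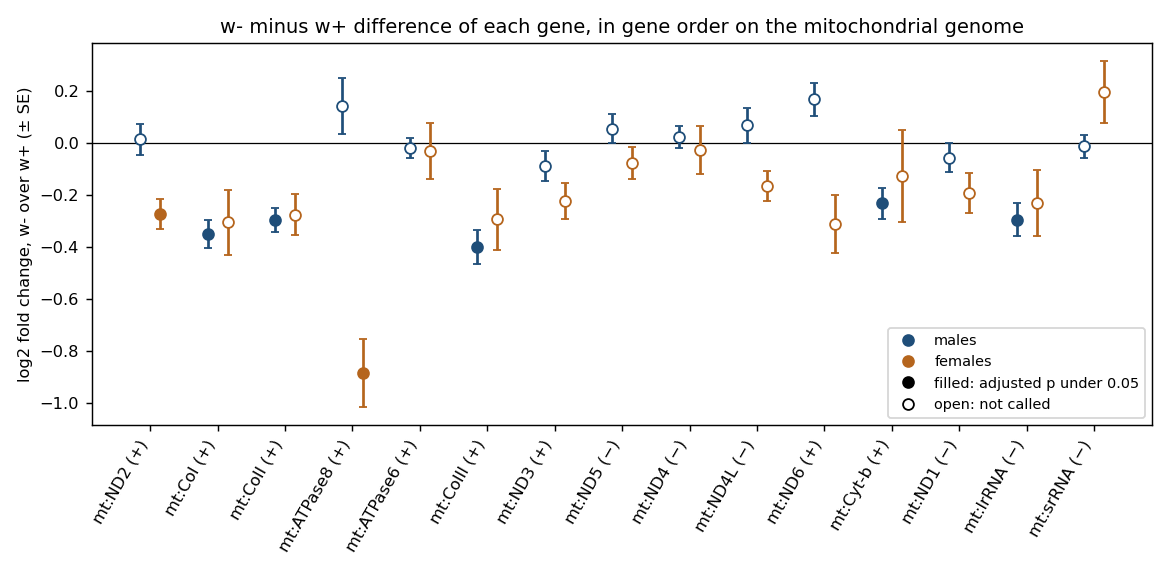
Log2 fold change of w- over w+ (± SE) for the 15 mitochondrial mRNAs and rRNAs in the order of their genes, with the strand in parentheses, in males and females. Filled points passed an adjusted p of 0.05, which 5 genes did in males, all lower in w-, and 2 genes (mt:ATPase8 and mt:ND2) in females.

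In females the same comparison called 2 of the 16 genes lower in w- flies, mt:ATPase8 and mt:ND2, and 0 higher, where 4.51% of the 10762 genes tested were lower and 4.72% higher. The estimates of 15 of the 16 genes were below 0, with a median of -0.23 beside 0.00 over all genes tested, but the genes share libraries and this is no test of them as a group. Scaling by library size alone moved the median of all genes by 0.14 on the log2 scale, and then 1 gene was called. A fit of all 20 samples, which shares 1 estimate of the spread, called 7 genes lower in w- females, and DESeq2 called 3. Without the samples numbered 1 or 4, 0 mitochondrial genes were called by edgeR, and without those numbered 2 or 5, 1 gene. The calls over all genes changed with the setting too. Lower calls were 485 in the main fit, 375 with library size alone, 1221 in the fit of all 20 samples and 922 with DESeq2. They were 41, 116, 267, 25 and 624 without the samples numbered 1, 2, 3, 4 and 5.

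mt:ATPase8 (FBgn0013673, plus strand, 3907 to 4068), a small ATP synthase subunit, had 15.7, 17.6, 12.93, 12.96 and 9.60 CPM in w+ females and 8.48, 7.13, 5.89, 8.02 and 7.24 CPM in w- females. Every w- female was below every w+ female. The log2 difference was -0.89 (SE 0.13, adjusted p = 0.0215), so the level fell by 45.9%, and its adjusted p was 0.0895 without the samples numbered 1 and 0.081 without those numbered 4. The gene is 162 bases long and shares 7 bases with mt:ATPase6, and reads that touch both genes were not counted, so its 207 to 682 counts per sample are only part of the reads from the shared transcript.

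In males mt:ATPase8 had 9.76, 7.64, 9.32, 12.5 and 8.49 CPM in w+ and 10.2, 11.2, 10.2, 10.2 and 10.5 CPM in w- samples. These groups overlapped, and the log2 difference was 0.14 (SE 0.11, adjusted p = 0.468). Over the 4 groups the order of the mean levels was 13.8 ± 3.1 in w+ females, 10.5 ± 0.46 in w- males, 9.54 ± 1.8 in w+ males and 7.35 ± 0.99 CPM in w- females (SD, n = 5 each). The adjoining mt:ATPase6 did not follow this order, with 747 ± 97.3 CPM in w+ females and 731 ± 98.1 in w- females (SD, n = 5 each). The length-adjusted ratio of mt:ATPase6 to mt:ATPase8 was accordingly 10.2 to 17.97 in w+ females and 20.1 to 27.5 in w- females.

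mt:ND2 (FBgn0013680, plus strand, 240 to 1263), a membrane subunit of complex I, had 101, 102, 85.7, 88.3 and 80.7 CPM in w+ females and 78.9, 72.4, 79.4, 77.3 and 68.5 CPM in w- females. The groups did not overlap, and the log2 difference was -0.27 (SE 0.06, adjusted p = 0.0391). It did not pass with library size alone (-0.13, adjusted p = 0.134), nor without the samples numbered 1 (0.131), 2 (0.078), 4 (0.114) or 5 (0.0572). In males mt:ND2 was 78.9 ± 7.3 CPM in w+ and 79.9 ± 4.8 in w- samples (SD, n = 5 each).

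The cytochrome oxidase subunits had estimates in females of a size like those in males but did not pass the test within females. In the edgeR fit of all 20 samples they did pass (adjusted p = 0.0422 for mt:CoI, 0.0116 for mt:CoII and 0.0483 for mt:CoIII). mt:CoII had 2067, 2233, 2115, 2771 and 2384 CPM in w+ females and 1972, 1877, 1883, 1971 and 1798 CPM in w- females. Although the groups did not overlap, the log2 difference of -0.28 (SE 0.08) had an adjusted p of 0.0702, while DESeq2 gave 0.00986. Together with mt:ATPase8 and mt:ND2 it was 1 of 3 genes without overlap in females, a pattern of 2.88% of the genes tested.

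mt:CoI had 10365, 11125, 10702, 14410 and 13108 CPM in w+ females and 10389, 10637, 9127, 9130 and 8734 CPM in w- females. The w+ females numbered 4 and 5 were far above the other 3, which were near the w- range. The log2 difference was -0.31 (SE 0.13, adjusted p = 0.152), and for mt:CoIII it was -0.29 (SE 0.12, adjusted p = 0.141).

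The same 2 samples led in mt:lrRNA, with 45253, 50407, 49894, 61680 and 61041 CPM in w+ females and 48292, 44568, 45890, 42916 and 45283 in w- females. Its log2 difference was -0.23 (SE 0.13, adjusted p = 0.261). The spread within groups was larger for mitochondrial RNAs than for the typical gene. The within-group SD of log2 CPM had a median of 0.142 over the 15 mRNAs and rRNAs and of 0.0945 over the 8091 tested genes with at least 5 CPM. Over the 4 groups together, mt:Cyt-b had the largest SD of the 15 RNAs (0.249) and mt:CoII the smallest (0.106). In w+ females alone the medians were 0.196 and 0.111, and the SDs of the 15 RNAs ran from 0.14 to 0.322.

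**Figure D4:**
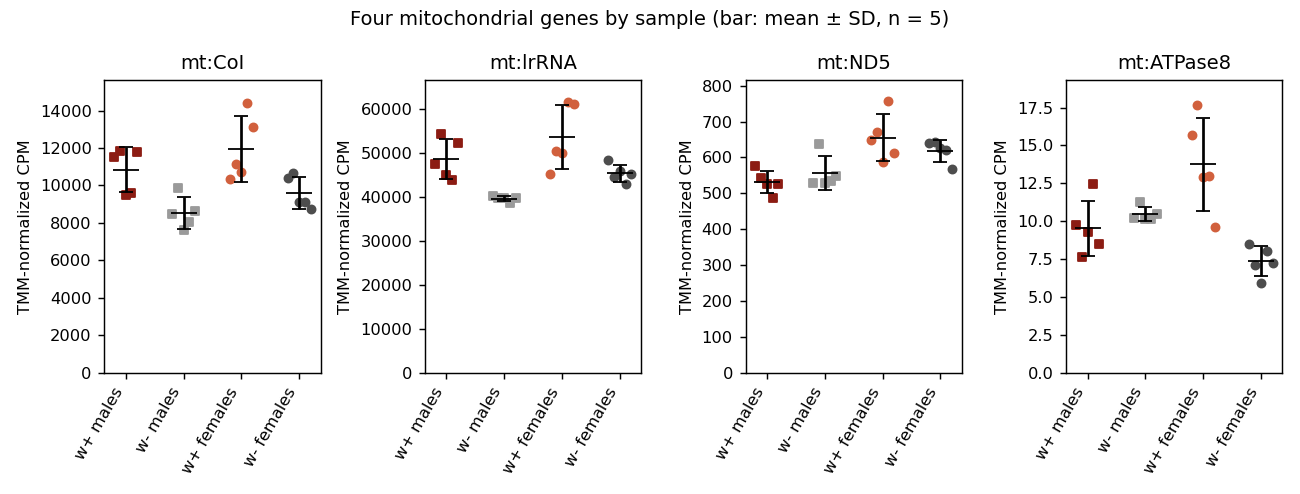
TMM-normalized CPM of mt:CoI, mt:lrRNA, mt:ND5 and mt:ATPase8 in each of the 20 samples, with bars for the mean ± SD (n = 5), and axes that start at 0. mt:lrRNA is lower in all w- males (38646 to 40211) than in w+ males (43786 to 54319), mt:ND5 overlaps between w+ and w- in both sexes, and mt:ATPase8 does not overlap between w+ and w- females.

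Whether the w- minus w+ difference itself depended on sex was tested in 1 fit of all 20 samples. edgeR called 0 of the 16 mitochondrial genes and 0.0263% of the 11423 genes tested in either direction. At an unadjusted p under 0.05 there were 4 mitochondrial genes, mt:ATPase8, mt:ND6, mt:ND2 and mt:ND4L, where 6.03% of all genes tested reached this, and DESeq2 called 1, mt:ATPase8 (adjusted p = 0.00153). In edgeR the difference between the sexes for mt:ATPase8 was -1.04 on the log2 scale (SE 0.19, adjusted p = 0.299) and for mt:ND6 -0.49 (SE 0.14, adjusted p = 0.634). All 4 genes had a more negative estimate in females than in males. For the oxidase subunits the difference between the sexes was 0.04 (SE 0.14) for mt:CoI, 0.01 (SE 0.09) for mt:CoII and 0.10 (SE 0.13) for mt:CoIII, and for mt:lrRNA it was 0.06 (SE 0.13). The calls in males and their absence in females are thus not shown to differ.

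The sexes were then compared within each eye color, which asks how far head mitochondrial RNA differs between females and males. Under scaling by library size alone the median log2 difference of all genes was -0.26 in w+ and -0.18 in w- flies. The differences below are therefore relative to the typical gene under TMM scaling. Cell type markers also moved with sex. In both eye colors both tested fat body markers were higher in females, 2 of 3 muscle markers were higher and 2 of 3 head neuron markers lower, and 1 muscle marker was lower in w+ females. The summed level of the neuron markers was 2904 to 3265 CPM in w+ males and 1888 to 2659 in w+ females, and 3147 to 3372 in w- males and 2278 to 2725 in w- females. Of the 3 photoreceptor markers 2 were lower in w- females than in w- males, and 0 were called in w+ flies. The part of these markers in the sex differences was not tested. In w+ flies 7 of the 16 genes were higher in females and 0 lower, where 19.7% of all genes tested were higher and 15.8% lower. They were mt:ATPase8 and 6 of the 7 complex I subunits, mt:ND1, mt:ND2, mt:ND4, mt:ND4L, mt:ND5 and mt:ND6. With library size alone 0 mitochondrial genes were called higher and 2 lower, where 719 of all 11423 genes tested were higher and 6440 lower. The estimates of mt:ND1, mt:ND2 and mt:ND6 were then -0.06, -0.06 and -0.00065.

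mt:ND5 had 648, 669, 587, 756 and 614 CPM in w+ females, all above the 488 to 576 CPM of w+ males (log2 difference 0.30, SE 0.07, adjusted p = 0.00193). mt:ND4 had 561, 599, 545, 716 and 568 CPM in w+ females and 452 to 521 in w+ males (0.28, SE 0.08, adjusted p = 0.00825). These were the 2 of 16 genes without overlap, where 9.6% of all genes tested were higher in females without overlap. mt:ND4L, which shares 1 base with mt:ND4, had 31.8 ± 3.5 CPM in w+ females and 24.7 ± 1.8 in w+ males (SD, n = 5 each, log2 difference 0.37, SE 0.07, adjusted p = 0.000612). Over all settings run, the lowest log2 estimates were 0.029 for mt:ND5, 0.0044 for mt:ND4 and 0.094 for mt:ND4L. None of these genes passed with library size alone. The count of 7 fell to 4 without the samples numbered 1 and to 3 without those numbered 2 or 4. Over all genes tested, the higher calls fell from 2256 to 1689, 1578 and 1803 without the samples numbered 1, 2 and 4.

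The 3 oxidase subunits and both rRNAs were not called in w+ flies. Their log2 differences between w+ females and w+ males ran from -0.07 (mt:srRNA) to 0.22 (mt:CoIII, SE 0.11, adjusted p = 0.119).

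In w- flies 2 genes were higher in females, mt:CoIII and mt:ND4, and mt:ATPase8 was lower, where 18.6% of all genes tested were higher and 16.7% lower. mt:CoIII had 5205, 5325, 4812, 5000 and 4465 CPM in w- females and 3421 to 4808 CPM in w- males (log2 difference 0.31, SE 0.11, adjusted p = 0.0364). mt:ND4 had 585 ± 57.1 CPM in w- females and 504 ± 33.4 in w- males (SD, n = 5 each, log2 difference 0.22, SE 0.08, adjusted p = 0.0329). mt:ATPase8 was lower in females, with 5.89 to 8.48 against 10.2 to 11.2 CPM in males (log2 difference -0.51, SE 0.14, adjusted p = 0.00968), whereas in w+ flies it was higher in females (0.53, SE 0.14, adjusted p = 0.00653). These contrasts share their 10 samples of each eye color with the comparisons above. With library size alone 0 mitochondrial genes were called higher and 3 lower in w- females, where 1050 of all genes tested were higher and 4718 lower. Without the samples numbered 3 edgeR called 0 mitochondrial genes in either direction, where 1706 of all genes tested were higher and 1370 lower. Without those numbered 1 it called only mt:ATPase8, where 1594 of all genes tested were higher and 1385 lower. The count of genes higher was 0 to 3 over the 5 numbers left out, and DESeq2 called 5.

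**Figure D5:**
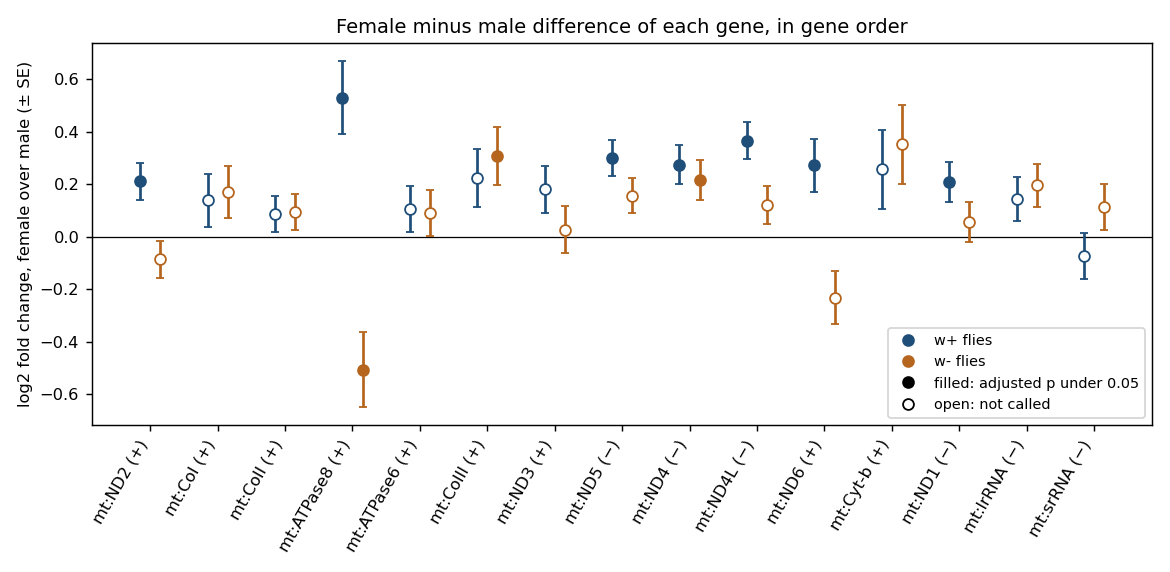
Log2 fold change of females over males (± SE) for the 15 mitochondrial mRNAs and rRNAs in gene order, within w+ and within w- flies, on the TMM scale. Filled points passed an adjusted p of 0.05, which 7 genes did in w+ flies and 3 in w- flies, and mt:ATPase8 is higher in females among w+ flies (0.53) and lower among w- flies (-0.51).

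mt:tRNA:Thr-TGT had 0.05 to 0.34 CPM across the samples, and its log2 differences of 0.25 in males (SE 0.43) and -0.46 in females (SE 0.37) were not detectable at this depth.

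The nuclear genes for the same complexes were read from the same fits. In males 63 nuclear subunits of complexes I, III, IV and V were tested, of which 1 was higher and 3 lower in w- flies, where 4.64% of all genes tested were higher and 8.06% lower. The median log2 difference was -0.09. The called genes were ND-AGGG (0.14, SE 0.04, adjusted p = 0.0412), an accessory subunit of complex I, and ND-PDSW (-0.17, SE 0.04, adjusted p = 0.025), UQCR-C1 of complex III (-0.17, SE 0.04, adjusted p = 0.032) and ATPsyngamma, the rotating stalk of ATP synthase (-0.16, SE 0.04, adjusted p = 0.0453). The next smallest p-values in complexes III and V were those of RFeSP (-0.11, adjusted p = 0.0898), the iron-sulfur subunit, and ATPsynF (-0.12, adjusted p = 0.0814). None of the 9 nuclear subunits of complex IV passed the test, with a median of -0.09 and the smallest p-values for COX5A (-0.13, adjusted p = 0.0547) and COX7A (-0.12, adjusted p = 0.0646). The estimates of 61 of the 63 genes were below 0, which is given as a count and not as a test.

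In females 0 of 64 such genes were called by edgeR, and 59 estimates were below 0 with a median of -0.10. The smallest p-values were those of ND-18 (-0.11, adjusted p = 0.0643) and ND-B12 (-0.11, adjusted p = 0.0743) in complex I, UQCR-C2 (-0.13, adjusted p = 0.0907) and UQCR-C1 (-0.13, adjusted p = 0.0912) in complex III, COX7A (-0.13, adjusted p = 0.141) and COX8 (-0.12, adjusted p = 0.159) in complex IV, and ATPsynD (-0.16, adjusted p = 0.0753) and ATPsynG (-0.17, adjusted p = 0.0771) in complex V. Complex II, succinate dehydrogenase, has no mitochondrially encoded subunit, and its 4 genes had medians of -0.02 in males and 0.00 in females, with 0 called by edgeR. The smallest p-values were those of SdhD (0.06, adjusted p = 0.392) and SdhB (-0.05, adjusted p = 0.58) in males, and of SdhD (0.03, adjusted p = 0.582) and SdhC (0.01, adjusted p = 0.879) in females.

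Between the sexes, 13 of 14 complex V genes passed the test as higher in females among w+ flies and 12 of 14 among w- flies. For complex I the counts were 11 and 8 of 32, for complex III 3 and 4 of 9, and for complex IV 4 and 3 of 9, with 0 lower in any of these lists. Of all genes tested, 19.7% were higher in females among w+ flies and 18.6% among w- flies. The median log2 differences of complex V were 0.18 in w+ and 0.16 in w- flies. These are relative to TMM scaling, and with library size alone the median of all genes was -0.26 and -0.18. Among the 12 calls in w- flies, ATPsynepsilonL was near the floor, with means of 0.30 CPM in w- females and 0.066 in w- males.

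Of 19 tested genes for replication, transcription and processing of the mitochondrial genome, 0 were higher and 2 lower in w- males, and 0 were higher and 3 lower in w- females, where 8.06% of all genes tested were lower in males and 4.51% in females. scu, a dehydrogenase that is also a subunit of the mitochondrial ribonuclease P that cuts precursors at the 5′ ends of tRNAs, was lower in both (males -0.51, SE 0.05, adjusted p = 0.00112, and females -0.41, SE 0.07, adjusted p = 0.0298). mldr, the nuclease subunit of the same enzyme, was also lower in both (males -0.47, SE 0.10, adjusted p = 0.016, and females -0.48, SE 0.10, adjusted p = 0.036). RNaseZ, which cuts at the 3′ ends of tRNAs in nuclei and mitochondria and is named because it completes the female count, was lower in females (-0.44, SE 0.10, adjusted p = 0.0443), and in males its estimate was -0.55 (SE 0.15, adjusted p = 0.0705). The remaining subunit of ribonuclease P, rswl, chosen here after its partners' values were seen, had estimates of -0.04 in males (SE 0.05, adjusted p = 0.645) and -0.09 in females (SE 0.05, adjusted p = 0.28). The medians of this list were -0.01 in males and -0.09 in females. Among 15 mitochondrial aminoacyl-tRNA synthetases, TrpRS-m was lower in w- females (-0.19, SE 0.04, adjusted p = 0.0375), followed by LeuRS-m (-0.12, adjusted p = 0.178). In males edgeR called 0, and ValRS-m (0.16, adjusted p = 0.1) and GluRS-m (0.20, adjusted p = 0.218) had the smallest p-values.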

How the data were processed

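RNA of 20 head pools was prepared by poly(A) capture with a strand-specific kit. The authors trimmed reads (Trim Galore 0.6.1, per the submitters' processing notes) and aligned them with STAR 2.5.4b to release r6.60. They deposited whole-number read counts per gene from the reverse strand, without normalization, in which reads that touch more than 1 gene or map more than once are left out. The authors also deposited tables of normalized signal for each sex, used here only to check samples and symbols, in which 13 mitochondrial genes appear under other symbols and 3 without one.

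A gene was tested if 3 or more of the 20 samples, and 3 or more of those in the fit, held 10 counts or more. Tests were run with edgeR 4.0.16 in R 4.3.3 (TMM, robust quasi-likelihood, Benjamini-Hochberg adjustment over all genes tested). The replicate number was a block within each sex and in the interaction, after the study's code, and not in the comparisons of sexes. A standard error is the log2 fold change over the square root of F. The Ensembl annotation of BDGP6.54 gave positions and lengths. DESeq2 1.42.0, other scalings and filters, other fits and each replicate number left out were alternatives. Samples of a group differed beyond sampling noise (chi-squared per degree of freedom of 15 to 357). On simulated data, log2 changes of 0.5 were recovered for 96 of 100 genes in males and 93 in females, and for 53 in the interaction. The simulation gave every gene the same spread, with no effect of replicate number, and changed only genes with many counts. That spread was narrower than the one fitted to the data in females and in the interaction. Mitochondrial RNAs varied more than the typical gene, so these numbers do not give the chance of detecting a change in them.

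Named were all mitochondrial mRNAs and rRNAs, each mitochondrial tRNA that passed the filter, and the 2 genes with the smallest p of each nuclear list in each sex, with RNaseZ and rswl added after their values were seen. The members and lists were chosen with earlier results of these data known.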

Additional observations from a re-analysis of the deposited data

Results flagged for a closer look

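Of 68 groups of 5 samples examined for a sample far from the rest (16 genes and the share of counts, in 4 groups each), 2 had one, and chance alone gives about 1 in 20. Both were the w- male numbered 2. Its mt:ND5 level was 638 CPM, where the other 4 w- males had 528 to 549 CPM, and its mt:ATPase8 level was 11.2 CPM, where the others had 10.2 to 10.5 CPM.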

How the results depend on the processing

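The 5 calls in males were 3 in a fit of all 20 samples and 3 to 5 with a replicate number left out, and 4 with library size alone, which lost mt:Cyt-b (-0.18, adjusted p = 0.0588) and added 1 higher gene, mt:ND6 (0.22, adjusted p = 0.0495). Without the replicate block 4 were lower. mt:CoI, mt:CoII and mt:CoIII kept their call under every alternative run. The 2 calls in females were 1 with library size alone, 7 in a fit of all 20 samples and 0 to 2 with a number left out, and remained 2 without the replicate block. The block was kept after the study's code, although the numbers paired the samples only in part in males and not in females. In males the mean correlation of same-numbered samples was 0.22 (-0.28 to 0.56), against -0.05 for samples of other numbers. Of these, 3 of 5 correlated best with their own number. In females the mean was -0.07 (-0.36 to 0.35), against 0.035 for other numbers, and 0 of 5 correlated best with their own. In w+ flies the 7 genes higher in females were 0 with library size alone, with 2 lower, and 3 to 7 with a number left out, with 0 to 1 lower. In w- flies the 2 higher genes were 0 with library size alone and 5 with DESeq2, and 0 to 3 with a number left out, and the 1 lower gene was 3 with library size alone and 0 to 1 with a number left out. A block in the comparisons of sexes gave 7 higher in w+ flies and 2 higher and 1 lower in w- flies. The interaction had 0 calls in edgeR, without the block too, and 1 in DESeq2. The number of calls over all genes tested also changed between these settings.

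Estimates of genes not called changed sign in places. With library size alone these were mt:ATPase6 (0.032) and mt:srRNA (0.039) in males, mt:ATPase6 (0.11), mt:ND5 (0.065), mt:ND4 (0.11) and mt:Cyt-b (0.012) in females, and the called mt:ND2 (-0.056), mt:ND6 (-0.00065) and mt:ND1 (-0.064) between w+ females and w+ males. With a number left out, male estimates ran from -0.048 to 0.069 for mt:ND2, -0.0014 to 0.040 for mt:ND4, -0.0035 to 0.11 for mt:ND4L, -0.0056 to 0.33 for mt:tRNA:Thr-TGT and -0.048 to 0.0062 for mt:srRNA. Female estimates ran from -0.13 to 0.062 for mt:ATPase6, -0.10 to 0.052 for mt:ND4 and -0.26 to 0.036 for mt:Cyt-b. Against nuclear counts alone the mitochondrial share was 8.24% in w+ and 6.84% in w- males and 7.59% in w+ and 7.002% in w- females, and the rRNA share was 5.58% and 4.64% in males and 5.11% and 4.74% in females. The causes of these changes were not tested.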
